A study of Mus musculus with 6 samples.

Results

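Mast cells grown from mouse bone marrow and labelled Pla2g3-/- were profiled after coculture with fibroblasts and on their own, and the 2 arrays holding these RNAs were chosen by their titles from the 6 arrays of the series. The coculture array carries RNA of Pla2g3-/- labelled mast cells kept for 4 days on wild-type Swiss 3T3 cells, an established mouse embryonic fibroblast line, with stem cell factor at 100 ng/ml. The array of the same label without fibroblasts carries RNA of mast cells from the bone marrow culture, which was grown in interleukin-3 at 10 ng/ml. The labels do not say whether interleukin-3 stayed in the coculture medium or whether cells without fibroblasts received stem cell factor. After coculture, mast cells were taken as the cells that did not readhere, or with magnetic beads against CD117 (Kit), and which route gave this RNA is not stated. Strain, sex and the deleted part of the Pla2g3 allele are not stated either. Set beside this pair are Pla2g3+/+ mast cells in the same coculture and alone, and wild-type mast cells on Lpar1+/+ and on Lpar1-/- Swiss 3T3 fibroblasts, the Lpar1-/- line being 1 CRISPR/Cas9 clone. Each array held RNA pooled from 3 samples and each group had 1 array, so there is no replicate check, and differences are given as sizes without a p-value. Of the 29596 genes on the arrays, 22340 were compared, which required a signal well above background on at least 1 of the 2 arrays.

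Mast cells are granule-bearing immune cells that mature in tissues under stem cell factor, the ligand of the receptor Kit, made by stromal cells. Mature connective tissue mast cells are known for heparin-bound tryptases and chymases and, in the mouse, for the receptor Mrgprb2, whereas mucosal mast cells of the mouse are known for the chymases Mcpt1 and Mcpt2. Coculture with fibroblasts is a classical way to push bone marrow-derived mast cells, which are immature, towards the connective tissue type, and the labels name that maturation as the purpose of the coculture. Pla2g3 encodes a secreted phospholipase A2, an enzyme that releases fatty acids and lysophospholipids from membranes.

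The targeted gene read higher, not lower, on the arrays labelled Pla2g3-/-. The 3 Pla2g3 probes, printed 5′ to 3′ as the array carries them because they decide how far the genotype label can be read, lie on chromosome 11 of mm9, plus strand.
Pla2g3 probe 1, chr11:3394109-3394168: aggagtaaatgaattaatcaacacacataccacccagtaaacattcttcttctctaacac
Pla2g3 probe 2, chr11:3393127-3393186: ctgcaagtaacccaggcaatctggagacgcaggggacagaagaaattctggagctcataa
Pla2g3 probe 3, chr11:3399294-3399353: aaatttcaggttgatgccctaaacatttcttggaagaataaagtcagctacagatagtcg
Levels are log2 of the signal over the 75th percentile of the array's spots throughout, so 0 is the 75th percentile itself. Probe 1, the brightest, read -1.84 on the array labelled Pla2g3-/- in coculture and 0.51 on the array labelled Pla2g3-/- without fibroblasts. It read -7.31 in Pla2g3+/+ coculture, -6.31 in Pla2g3+/+ cells alone, -6.58 on Lpar1+/+ fibroblasts and -4.85 on Lpar1-/- fibroblasts. The arrays labelled Pla2g3-/- therefore stood above the other 4 with this probe, and with probe 2 (-6.60 and -4.08, against -9.09 to -7.11 on the other 4) and probe 3 (-3.51 and -2.67, against -9.09 to -8.13). A probe outside the deleted part, which the labels do not name, checks nothing. The arrays are called by their labels below. Within the label, probes 1, 2 and 3 were 5.10-fold, 5.75-fold and 1.79-fold lower in coculture than alone.

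Under the Pla2g3-/- label, 2544 genes were at least 2-fold higher in coculture than alone (11.4% of the 22340 compared) and 1628 were at least 2-fold lower (7.29%). Of these, 258 were at least 10-fold higher and 109 at least 10-fold lower. The median difference over all genes compared was 0.12 on the log2 scale, and list medians below are set beside it. Counts of list members are likewise to be read beside the shares of all genes, 11.4% higher and 7.29% lower. As a measure of spread within 1 slide, the 2 like cocultures of Pla2g3+/+ or wild-type mast cells on wild-type fibroblasts were compared. Their differences had an SD of 0.29 over genes, and 95% lay within 0.62. Of 23999 genes, 190 were at least 2-fold higher and 40 lower on Lpar1+/+ fibroblasts than in Pla2g3+/+ coculture. The scanner software's own error of a difference, which covers the spot and not the culture, had a median of 0.20. Both arrays of mast cells alone shared 1 slide and all 4 coculture arrays another. The effect of the slide and that of coculture therefore cannot be told apart. The spread of the like cocultures leaves out any spread between slides, which the main comparison includes. With quantile normalisation the split moved to 1905 higher and 1838 lower, and with another background correction (normexp) the counts fell to 1107 and 911.

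**Figure D1:**
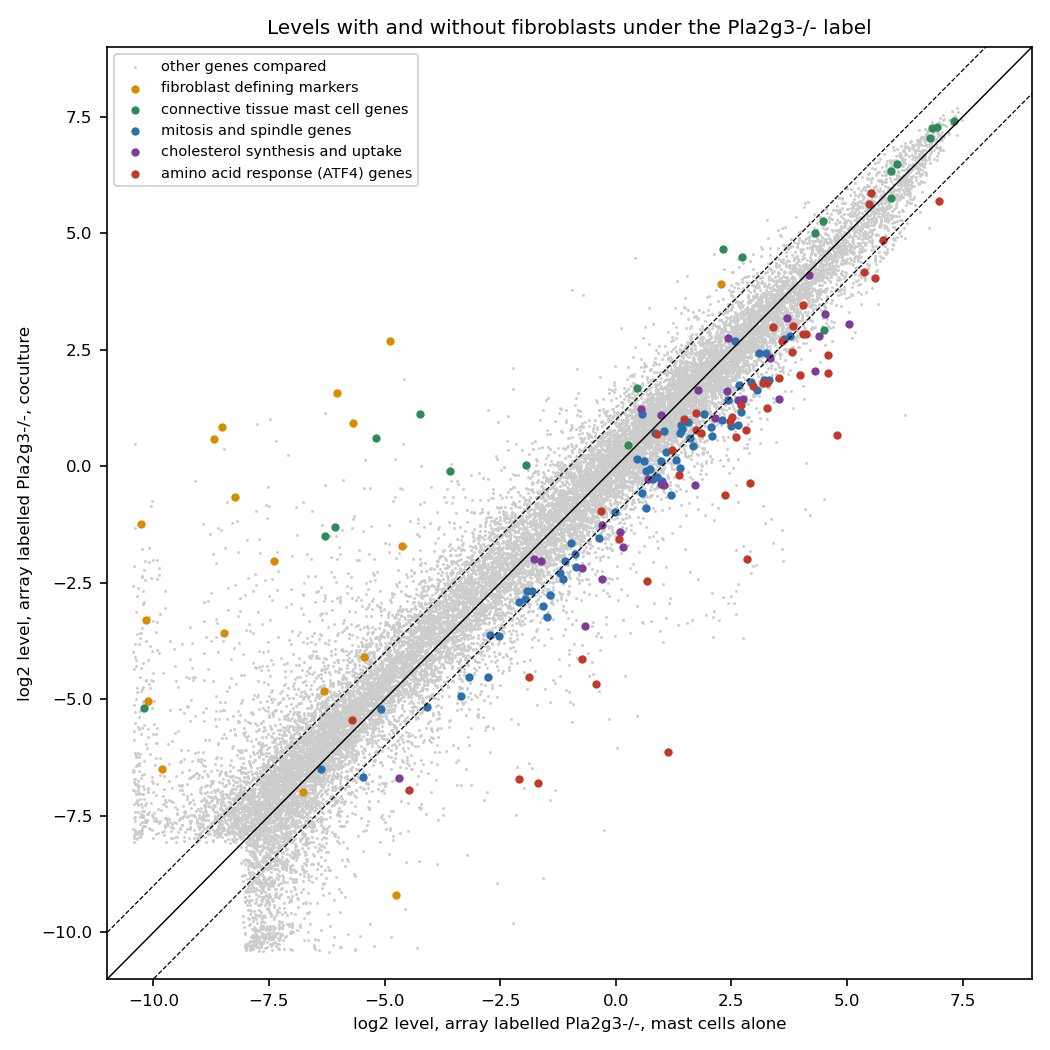
Log2 level of each gene compared in the coculture labelled Pla2g3-/- (vertical axis) against the mast cells alone of the same label (horizontal axis), both relative to the array's 75th percentile. Each point is 1 gene, the solid line marks equal levels and the dashed lines 2-fold. Fibroblast markers and several connective tissue mast cell genes stand above the upper line, and amino acid response, cholesterol and mitosis genes lie along or under the lower line.

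Mast cell markers were present on both arrays, and fibroblast markers were higher in coculture. All 8 mast cell markers checked (Kit, Fcer1a, Ms4a2, Cpa3, Tpsb2, Hdc, Gata2 and Mitf) were above background on every array, with a summed signal of 489 in coculture and 383 alone, in multiples of the 75th percentile. Of 20 genes that define fibroblasts, 17 were above background in coculture and 10 alone, with summed signals of 31.6 and 5.04. Of the 18 compared, 16 were at least 2-fold higher (background 11.4%), 1 was lower, and their median difference was 4.67, or 1.91 with normexp. Col1a2, a chain of type I collagen, read 1.58 in coculture and -6.03 alone, and Sparc, a collagen-binding matrix protein, read 2.69 and -4.88, with 1 of its 2 other probes within 2-fold. The exception was Thy1, a surface protein of T cells and some fibroblasts, which read -9.20 in coculture, not above background, and -4.76 alone. The summed fibroblast signal was lower here than in the other cocultures, at 86.2 in Pla2g3+/+ coculture, 83.7 on Lpar1+/+ and 48.6 on Lpar1-/- fibroblasts. Over the 17 markers above background in all 4, 16 were lower than in Pla2g3+/+ coculture, with a median difference of -1.29. In bulk RNA, fewer cells of a type and less RNA per cell cannot be told apart. How much of each higher gene below came from fibroblasts was not tested.

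**Figure D2:**
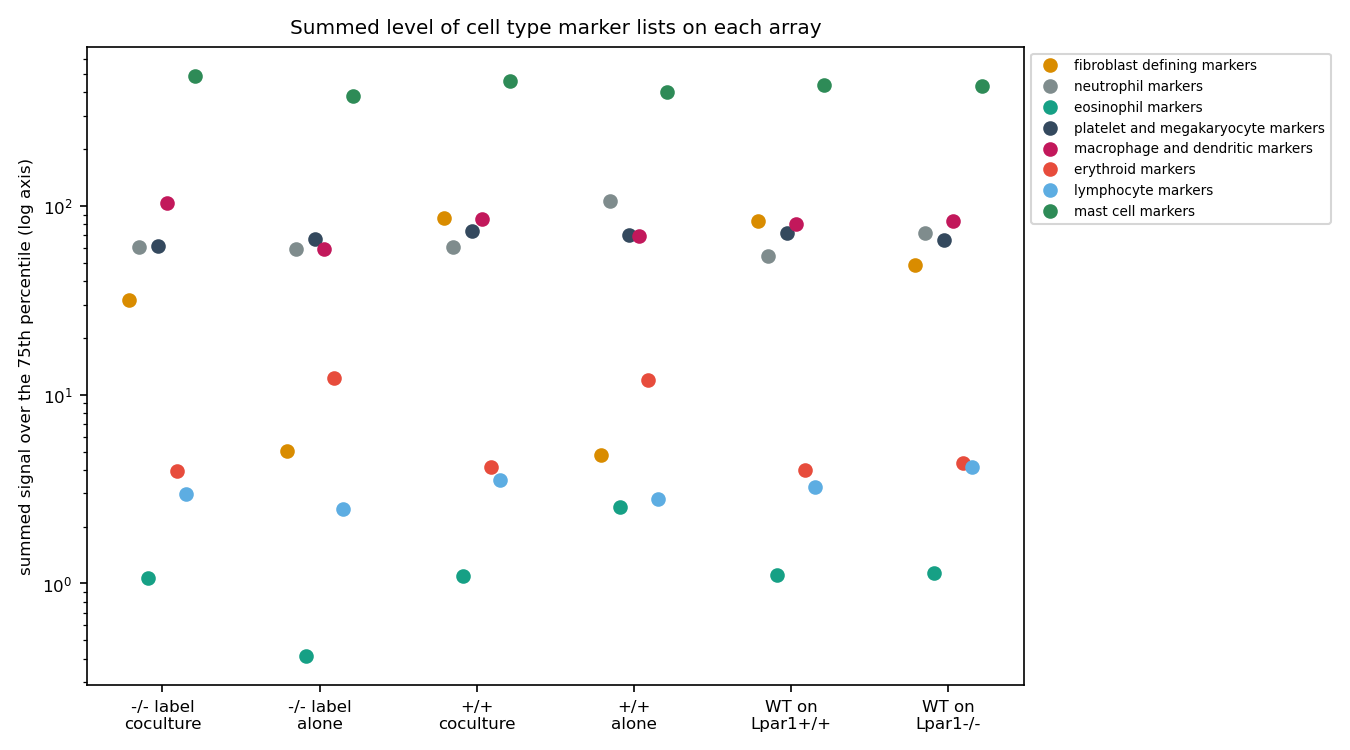
Summed signal of each marker list (vertical log axis, in multiples of the array's 75th percentile) on the 6 arrays along the horizontal axis, 1 point a list and array. Mast cell markers sum to 489 in the coculture labelled Pla2g3-/- and 383 without fibroblasts, and fibroblast markers to 31.6 and 5.04.

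Markers of blood cells other than mast cells were checked in the same way. Neutrophil markers summed to 60.4 in coculture and 59.3 alone, and platelet markers to 61.2 and 67.1. The neutrophil sum hides single members, since 8 of 19 compared were at least 2-fold lower and 1 was higher, with a median difference of -0.58. A sum weighs its brightest members most, also in the lists that follow. Macrophage and dendritic markers summed to 104 in coculture and 59.1 alone. Of 26 compared, 6 were higher (background 11.4%) and 10 lower (background 7.29%), with a median difference of -0.05. Of these, Cx3cr1, the fractalkine receptor, read 5.64 in coculture and 4.08 alone, and Fcgr1, a high-affinity IgG receptor, read -7.30 and -4.25. Erythroid markers summed to 3.96 in coculture and 12.3 alone. Of 10 compared, 4 were at least 2-fold lower, none was higher and 6 were within 2-fold, with a median difference of only -0.10. The alpha-globin gene Hba-a2 read -1.72 in coculture and 2.75 alone, a 22.0-fold lower level.

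The 15 largest measured increases included 3 fibroblast markers (Col1a2, Sparc and Fn1) and the mast cell gene Mcpt1. Tm4sf1, a surface tetraspan protein, read 0.90 in coculture and -7.76 alone, 406-fold higher. Mcpt1, a mucosal mast cell chymase, read 1.02 in coculture and -7.48 alone, 363-fold higher. Both readings without fibroblasts sat close to the lowest level counted as above background on that array, -8.11. The other 13 of the 15 highest genes were Serpinh1, Col1a2, Sparc, Aebp1, Timp1, Cxcl12, Marcks, Cnn3, Tmem132a, Fn1, Pcolce, Npdc1 and Ppic, from 240-fold higher for Serpinh1, a collagen chaperone, to 71.4-fold higher for Ppic. Without fibroblasts Serpinh1, Timp1, Cxcl12, Marcks, Cnn3, Tmem132a, Npdc1 and Ppic also read near that limit, from -7.78 for Marcks to -7.09 for Timp1. Col1a2, Sparc, Aebp1, Fn1 and Pcolce read farther above it, from -6.28 for Aebp1 to -4.57 for Pcolce. A further 6 genes were not above background alone and can be given only as bounds: Col1a1 at least 495-fold higher, Fbln2 at least 419-fold, Nid1 at least 384-fold, Prl2c5 at least 359-fold, Fkbp10 at least 222-fold and Col3a1 at least 175-fold. The other 2 Nid1 probes differed by much less, 2.28 and 2.40 on the log2 scale, and 1 of the other 2 Cnn3 probes by 0.77. Of the 2544 higher genes, 370 were not above background on either array without fibroblasts.

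The largest decreases included enzymes, immune cell genes and 1 transcription factor. Cth, which makes cysteine from cystathionine, read -6.12 in coculture and 1.12 alone, 151-fold lower. Klf2, a transcription factor of quiescent lymphocytes and endothelium, read -2.02 in coculture and 3.62 alone, 49.8-fold lower. Slamf9, an immune surface receptor, read -6.94 and -1.30, and Gimap3, a GTPase of lymphocytes, read -7.16 and -1.41. Dnah7b, an axonemal dynein heavy chain, read -3.68 and 2.76, and 3 genes of the Cyp4a family of fatty acid hydroxylases (Cyp4a31, Cyp4a12a and Cyp4a12b) were 67.1-fold, 53.9-fold and 46.0-fold lower. These 3 belong to a family of close relatives and their assignment is uncertain. A second Cyp4a31 probe differed by only 0.20. The largest bounds were Dnah7c at least 186-fold lower and Mgarp, a mitochondrial protein, at least 91.5-fold lower. The remaining genes of the 15 lowest were Gm6093, Cyb5r2, a T cell receptor gamma constant segment and 4 immunoglobulin heavy variable segments.

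Genes of connective tissue mast cells were higher in coculture as a group. Of 21 compared from a list of 23, 10 were at least 2-fold higher (background 11.4%) and 1 was lower (background 7.29%). The median difference was 0.77. Tpsab1, a tryptase, read 0.61 in coculture and -5.18 alone, 55.2-fold higher. Tpsb2, the partner tryptase, read 4.49 and 2.74, and Mcpt4, the connective tissue chymase, read 4.66 and 2.31. Mrgprb2, the receptor through which cationic drugs and peptides activate mouse mast cells, read 1.13 in coculture and -4.24 alone, 41.3-fold higher. Its relatives Mrgprx2 and Mrgprb13 were 28.0-fold and 27.2-fold higher, and Mrgprb1 was at least 7.63-fold higher. Slc6a4, the serotonin transporter, read -0.10 in coculture and -3.58 alone. Ctsg, cathepsin G, was the 1 member that was lower, at 2.92 and 4.51. Some genes that were bright on both arrays stayed within 2-fold. Cpa3, carboxypeptidase A3, read 7.29 and 6.94, Cma1, a chymase, 6.49 and 6.09, and Tph1, which starts serotonin synthesis, 7.41 and 7.30.

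Mucosal-type chymases were higher in the same coculture. Mcpt2 read 3.78 in coculture and -0.94 alone, 26.5-fold higher, beside the 363-fold difference of Mcpt1. The basophil protease Mcpt8 read -0.06 and -0.04, and Mcpt9 read -7.50 and -7.27. Of the 6 mucosal and basophil type genes compared, 3 were higher (background 11.4%) and none was lower. The third was the pseudogene Mcpt-ps1, whose signal may not be separate from that of the connective tissue chymase Mcpt4, as the probes below show.

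Because these proteases come from gene families, the probes behind them are shown, with mm9 positions.
Mcpt1, chr14:56638928-56638987, plus strand: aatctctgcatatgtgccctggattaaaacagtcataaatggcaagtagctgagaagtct
Mcpt2, chr14:56663261-56663320, plus strand: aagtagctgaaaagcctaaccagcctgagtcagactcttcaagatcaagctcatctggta
Mcpt4, chr14:56678589-56678648, minus strand: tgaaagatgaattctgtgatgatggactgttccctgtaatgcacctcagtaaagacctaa
Tpsab1, chr17:25480640-25480699, minus strand: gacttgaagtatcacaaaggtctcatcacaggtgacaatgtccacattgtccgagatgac
Tpsb2, chr17:25504819-25504878, plus strand: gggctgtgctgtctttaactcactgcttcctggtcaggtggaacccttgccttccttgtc
The longest run shared by the Mcpt1 and Mcpt2 probes was 10 bases, and that shared by Tpsab1 and Tpsb2 was 6 bases. The Mcpt4 probe shared a run of 27 bases with the probe of the pseudogene Mcpt-ps1, so those 2 signals may not be separate. Mcpt-ps1 was 5.37-fold higher in coculture. Probes were compared with each other and not with whole transcripts.

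The receptors that define mast cells differed by less than 2-fold. Kit read 6.97 in coculture and 6.58 alone, and Fcer1a, the IgE-binding chain of the high-affinity receptor, read 6.78 and 6.48. Among 29 genes of IgE receptor signalling, 3 were higher (Grap2 and Pik3r5 among them), 2 were lower (Pik3cd and Cd200r1) and 24 were within 2-fold. Of 22 cytokine receptors and related genes, 5 were higher and 2 lower. Il2ra, the alpha chain of the interleukin-2 receptor, read -2.14 in coculture and 0.03 alone, and Il7r read -1.85 and -4.68. Among 28 lineage transcription factors, 3 were higher and 3 lower, and the counts of this list and of IgE receptor signalling are near the shares of all genes, 11.4% higher and 7.29% lower. Stat5a, which carries Kit and interleukin-3 receptor signals, read 4.06 in coculture and 2.77 alone, and Gata2 read 5.45 and 5.25.

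Targets of STAT5, the factor downstream of interleukin-3 and Kit, were lower in coculture. Of 20 compared, 16 were at least 2-fold lower (background 7.29%) and 1 was higher, with a median difference of -1.57. Socs1, a feedback inhibitor of cytokine receptors, read 0.07 in coculture and 4.12 alone, 16.5-fold lower. Cish, a feedback inhibitor of the same family, read 2.88 and 5.18. The survival genes Bcl2 and Bcl2l1 were 5.95-fold and 3.07-fold lower, and the kinase gene Pim2 was 9.69-fold lower. Cytokine genes on the list were lower too, with Osm 7.14-fold and Lif 8.12-fold lower. The 1 higher member was Bcl6, a transcriptional repressor, at 3.68 in coculture and -0.71 alone, 21.0-fold higher.

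Feedback genes of the ERK kinase cascade split in both directions. Of 26 compared, 9 were lower (background 7.29%) and 4 higher (background 11.4%), with a median difference of -0.57 that was -0.26 with normexp. Dusp6, the phosphatase that dephosphorylates ERK, read -1.21 in coculture and 3.22 alone, 21.5-fold lower. Etv5, an ETS factor, read -1.80 and 2.60, and Spry1, a Sprouty inhibitor of receptor tyrosine kinases, read -6.83 and -3.12. Spred2 and Dusp1 were 9.63-fold and 11.7-fold lower. Ccnd1, cyclin D1, went the other way, at -0.48 in coculture and -4.63 alone, 17.8-fold higher, and Etv4 was 2.44-fold higher. Ccnd1 and Etv4 stood higher in every coculture array than on either array without fibroblasts.

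Immediate early transcription factors, which cells switch on within minutes of a stimulus, also split. Of 32 compared, 10 were lower (background 7.29%) and 5 were higher (background 11.4%), with a median difference of -0.04. Fosb, an AP-1 subunit, read -2.28 in coculture and 2.92 alone, 36.7-fold lower, and Fos read -2.42 and 1.78, 18.4-fold lower. Atf3, a stress-induced factor, was 13.2-fold lower and Myc, a growth regulator, was 8.54-fold lower. The nuclear receptor Nr4a1 read -1.05 in coculture and 1.52 alone. The higher members were Fosl1, Maf, Klf10, Zfp36 and Btg2, from 9.32-fold for Fosl1 to 2.36-fold for Btg2. Among cytokine genes, 8 of 32 were higher and 8 lower, beside the same backgrounds. Tnf, the inflammatory cytokine stored and made by mast cells, read -6.47 in coculture and -1.80 alone, 25.4-fold lower, and Il13 was 9.28-fold lower.

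Genes of the amino acid response were lower in coculture. They are targets of ATF4, a factor that raises amino acid transport and synthesis and transfer RNA charging when amino acids run short. Of 48 compared from 50 listed, 34 were at least 2-fold lower (background 7.29%), none was higher, and the median difference was -1.47. Chac1, which degrades glutathione, read -1.99 in coculture and 2.84 alone, 28.5-fold lower. Stc2, a secreted glycoprotein, Pycr1, of proline synthesis, and Aldh1l2, of mitochondrial folate metabolism, were 34.7-fold, 24.6-fold and 19.0-fold lower. Asns, asparagine synthetase, read 2.39 and 4.58, and Atf4 itself read 5.70 and 6.98. Ddit4, a stress-induced inhibitor of mTORC1 that is also on the list, read 5.86 in coculture and 5.52 alone, within 2-fold. A second Pycr1 probe differed by -0.82, less than 2-fold.

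Promoters of this list are shown for the 3 members with the lowest differences that hold the composite letters TGATGNAA on either strand, which are in capitals. RefSeq windows of 300 bases, from 250 before to 50 after the gene start, on GRCm38.p6, were searched.
Chac1, chr2:119350992-119351291, plus strand: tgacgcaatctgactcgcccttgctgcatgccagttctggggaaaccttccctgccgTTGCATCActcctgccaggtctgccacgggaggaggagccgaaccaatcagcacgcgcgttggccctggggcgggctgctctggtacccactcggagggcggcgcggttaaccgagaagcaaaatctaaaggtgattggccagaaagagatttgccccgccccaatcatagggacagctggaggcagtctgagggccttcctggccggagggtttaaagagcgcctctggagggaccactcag
Pycr1, chr11:120643699-120643998, minus strand: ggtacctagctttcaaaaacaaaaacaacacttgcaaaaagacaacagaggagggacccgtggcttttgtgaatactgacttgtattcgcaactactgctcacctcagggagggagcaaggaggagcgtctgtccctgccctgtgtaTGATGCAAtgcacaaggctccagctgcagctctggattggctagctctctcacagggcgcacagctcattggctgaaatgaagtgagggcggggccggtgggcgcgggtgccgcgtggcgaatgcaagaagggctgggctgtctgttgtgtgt
Trib3, chr2:152344011-152344310, minus strand: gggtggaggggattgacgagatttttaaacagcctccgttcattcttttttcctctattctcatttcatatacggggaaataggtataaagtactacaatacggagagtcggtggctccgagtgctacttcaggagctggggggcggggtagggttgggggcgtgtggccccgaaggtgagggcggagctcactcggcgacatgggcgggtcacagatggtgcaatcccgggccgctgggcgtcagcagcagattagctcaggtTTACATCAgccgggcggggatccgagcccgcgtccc
The letters occurred in 14 of the 38 list members with a window (36.8%), against 4.51% of the 27025 genes with a window and 3.31% of the 14029 genes compared that had one. Trib3, a pseudokinase, read 0.68 in coculture and 4.78 alone. A match is a description of the letters and not of a bound factor. The list is one of ATF4 targets, and its compared members were counted whether lower or not. The share therefore says nothing on the coculture difference.

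Genes of MYC and ribosome biogenesis and of the unfolded protein response were lower to a smaller extent. Of 75 genes of MYC and ribosome biogenesis, 25 were lower (background 7.29%) and 2 higher (background 11.4%), with a median difference of -0.76. Srm, spermidine synthase, read 0.60 in coculture and 2.88 alone, and Ppan, a ribosome assembly factor, read 0.90 and 2.85. The 2 higher members were Mxi1 and Mxd1, antagonists of MYC. Of 32 genes of the unfolded protein response, 8 were lower and none higher (median -0.54), among them the chaperones Sdf2l1 and Hyou1. Of 63 respiratory chain genes, 2 were lower, a share below that of all genes, and 61 were within 2-fold, with a median of -0.38.

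Cholesterol synthesis was lower along the pathway. Of 29 genes compared, 18 were at least 2-fold lower (background 7.29%), none was higher, and the median difference was -1.27. Hmgcs1, a synthase early in the pathway, read 2.80 in coculture and 4.40 alone. Fdps, which makes farnesyl diphosphate, read 2.04 and 4.32, 4.85-fold lower, and Idi1 and Mvd, the steps before it, were 4.24-fold and 4.38-fold lower. Hsd17b7, a keto reductase late in the pathway, was 6.73-fold lower. The regulators Srebf2 and Scap read 1.65 and 2.76 in coculture, against 1.78 and 2.43 alone, within 2-fold. Among fatty acid genes, Scd1 and Fasn were 3.18-fold and 2.26-fold lower, while Fads3 was 9.47-fold higher, and the list as a whole had 3 higher and 4 lower of 22. Abca1, the cholesterol exporter, was 5.03-fold lower.

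Genes of the cell cycle were lower. Of 65 mitosis and spindle genes, 33 were at least 2-fold lower (background 7.29%), none was higher, and the median difference was -1.004. Tpx2, a spindle assembly factor, read -0.61 in coculture and 1.19 alone, and Ube2c, a ubiquitin-conjugating enzyme, read 0.87 and 2.49. Mki67, the proliferation antigen, read 2.74 and 3.64, within 2-fold. Of 54 DNA replication and S phase genes, 12 were lower and none higher, with a median of -0.52. Orc1, of the origin recognition complex, read -6.41 in coculture and -4.46 alone, and Gins2, of the replicative helicase, read -3.22 and -1.51. Of 22 replication-dependent histone genes, 7 were lower and 1 higher, a family of near-identical members whose assignment is uncertain. Between the 2 like cocultures, which shared a slide, none of these 65 mitosis and 54 S phase genes differed 2-fold. With normexp background correction Orc1 differed by -0.66, less than 2-fold.

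One promoter is shown for each of 3 lists, from the member with the lowest difference that holds the letters in capitals: CCAAT for cholesterol synthesis (Hsd17b7), TTTNGCGC, an E2F pattern, for S phase (Orc1), and TTTGAA, a cell cycle homology region, for mitosis (Cdca3).
Hsd17b7, chr1:169969156-169969455, minus strand: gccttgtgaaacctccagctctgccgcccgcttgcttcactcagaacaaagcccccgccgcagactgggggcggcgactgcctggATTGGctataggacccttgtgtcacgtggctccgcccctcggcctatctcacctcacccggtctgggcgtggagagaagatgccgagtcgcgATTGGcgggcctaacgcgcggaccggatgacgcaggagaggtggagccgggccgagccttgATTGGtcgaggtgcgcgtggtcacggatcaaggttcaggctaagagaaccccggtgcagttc
Orc1, chr4:108579204-108579503, plus strand: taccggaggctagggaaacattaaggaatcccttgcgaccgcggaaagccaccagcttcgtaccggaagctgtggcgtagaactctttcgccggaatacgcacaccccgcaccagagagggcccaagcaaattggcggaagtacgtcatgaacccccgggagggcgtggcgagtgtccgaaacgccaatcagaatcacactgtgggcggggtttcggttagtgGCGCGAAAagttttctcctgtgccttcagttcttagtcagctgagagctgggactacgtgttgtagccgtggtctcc
Cdca3, chr6:124829926-124830225, plus strand: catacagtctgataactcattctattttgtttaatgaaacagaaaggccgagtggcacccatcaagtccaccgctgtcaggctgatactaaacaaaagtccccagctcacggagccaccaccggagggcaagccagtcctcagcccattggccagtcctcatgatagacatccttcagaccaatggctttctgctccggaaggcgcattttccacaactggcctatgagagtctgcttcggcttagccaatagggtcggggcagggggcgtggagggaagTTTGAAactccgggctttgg
CCAAT occurred in 18 of 21 cholesterol genes with a window (85.7%), against 41.1% of all genes with a window. It was not particular to them, with 70.9% of mitosis, 63.2% of amino acid response, 60.0% of ERK feedback and 58.7% of S phase genes. Among immediate early genes the share was 39.1%. TTTNGCGC occurred in 14 of 46 S phase genes (30.4%), against 1.57%, and TTTGAA in 36 of 55 mitosis genes (65.5%), against 20.2%. Over the genes compared, these 2 patterns were in 2.395% and 16.1%. The sterol pattern TCACNCCAC was in 1 of the 21 cholesterol genes, against 1.44% of all. The cyclic AMP element TGACGTCA was in 2 of 23 immediate early and 3 of 20 ERK feedback genes, against 2.03% of all. Both strands were searched, each pattern was counted separately, and 1 window may hold several. Here too compared members were counted whether lower or not, so the shares say nothing on the coculture differences.

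Some receptors for chemoattractants were higher. Of 26 compared, 10 were at least 2-fold higher (background 11.4%) and 1 lower, with a median difference of 0.77 that was 0.20 with normexp and 0.44 with quantile normalisation. Cxcr4, the receptor of Cxcl12, read -0.43 in coculture and -3.99 alone, 11.8-fold higher, and the other 4 arrays read from -5.16 to -4.60. Its ligand Cxcl12, a stromal chemokine, was 135-fold higher. C5ar1, a complement receptor, and Cxcr5 were 6.40-fold and 5.86-fold higher, the second of these by 0.96 on the log2 scale with normexp. Of 43 integrin and adhesion genes, 14 were higher and 1 lower. Itga4, an integrin chain of blood cells, read -0.19 in coculture and -3.14 alone, and Vcam1, a ligand of that integrin and a stromal gene, was at least 61.5-fold higher by its brightest probe and differed by 0.86 with another. Of 34 TGF-beta pathway genes, 14 were higher and 2 lower, led by Ltbp2, Inhba and Ltbp1, the last as a bound that a second probe, at 0.65, did not share, with Smad3, the receptor-activated signal carrier, at -1.63 in coculture and -4.99 alone.

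Lipid mediator genes are given singly, since the counts of their lists were mostly near those of all genes (11.4% higher and 7.29% lower). Ltc4s, leukotriene C4 synthase, read 1.38 in coculture and 3.43 alone, 4.13-fold lower, and Ltb4r1, a leukotriene B4 receptor, was 7.38-fold lower. Hpgds, which makes prostaglandin D2, read 1.68 and 0.46, and Ptgs2, the inducible cyclooxygenase, read -2.29 and -5.24. The leukotriene-forming lipoxygenase Alox5 read 6.37 and 6.63. In all, 3 of 32 prostaglandin and leukotriene genes were higher and 7 lower, the share of lower genes being above the 7.29% of all genes. Of 40 phospholipase A2 and lysophospholipid genes, 5 were higher and 3 lower. Lpar2, a receptor for lysophosphatidic acid, read -4.998 in coculture and -7.20 alone, although a second probe differed by only 0.03. Sphk1, which makes sphingosine 1-phosphate, was 2.80-fold higher.

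Some further lists are given by their counts, beside backgrounds of 11.4% higher and 7.29% lower. Matrix genes divided between 24 higher and 4 lower of 48 (median 1.08), and matrix proteases and inhibitors between 18 and 1 of 28 (median 1.27), the exception being Timp3, a protease inhibitor, at -3.35 in coculture and 1.54 alone. Smooth muscle contractile genes were higher in 8 of 24 and lower in none, and stromal surface and niche genes were higher in 10 of 30 and lower in 3. Of 54 interferon-induced genes, 7 passed 2-fold upwards and 16 downwards (median -0.32), from Ifi204 at -1.79 in coculture and -5.56 alone to Rtp4 at -3.30 and 0.16. Antigen presentation genes were lower in 6 of 27 and higher in none, among them the class II genes H2-Ab1, H2-Aa and H2-Eb1, of which H2-Aa differed by only -0.42 with normexp.

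Several single genes of other lists differed strongly. Tfrc, the transferrin receptor that imports iron, read -3.58 in coculture and 0.32 alone, while 4 of 27 iron genes were higher. Car12, a carbonic anhydrase, read -1.13 in coculture and 3.35 alone, and Eno2, an enolase, read 0.00 and -4.22, in a hypoxia and glycolysis list with 5 higher and 9 lower of 40. Adora2b, an adenosine receptor, read -0.84 in coculture and 3.18 alone. Dhrs3, a retinal reductase, read 4.48 in coculture and 0.41 alone. Ctsl and Lgmn, lysosomal proteases, read 1.08 and 1.43 in coculture, against -2.32 and -1.51 alone, while 40 of 46 lysosomal genes stayed within 2-fold. Granule exocytosis genes (3 higher, 1 lower of 28), heparin synthesis genes (4 and 2 of 34) and BCL-2 family genes (3 and 4 of 29) were mostly within 2-fold, and Bcl2l11, which promotes cell death, read -2.84 in coculture and -5.25 alone, although a second probe differed by only 0.54.

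The coculture of Pla2g3+/+ mast cells, measured on 2 other arrays, gives the same contrast under the other genotype label. There 2900 genes were at least 2-fold higher (12.8% of 22607) and 1698 lower (7.51%). Of the genes compared in both, 1291 were higher in both, which is 51.8% of those higher under the Pla2g3-/- label and 46.3% of those higher in Pla2g3+/+ cells. For lower genes the shared number was 597, or 36.9% and 35.9%. The difference between the 2 contrasts has no test with 1 array each, so the values stand side by side. Cholesterol genes had a median of -1.27 under the Pla2g3-/- label and 0.50 in Pla2g3+/+ cells, where none of the 29 passed 2-fold. Mitosis genes had -1.004 and 1.26, with 54 of 65 higher in Pla2g3+/+ cells. Amino acid response genes had -1.47 and -0.80, and STAT5 targets had -1.57 and -0.89. Connective tissue mast cell genes had 0.77 and 0.68, with 9 genes higher in both. Summed fibroblast signal also differed between these cocultures, at 31.6 and 86.2, and its part in these differences was not tested.

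**Figure D3:**
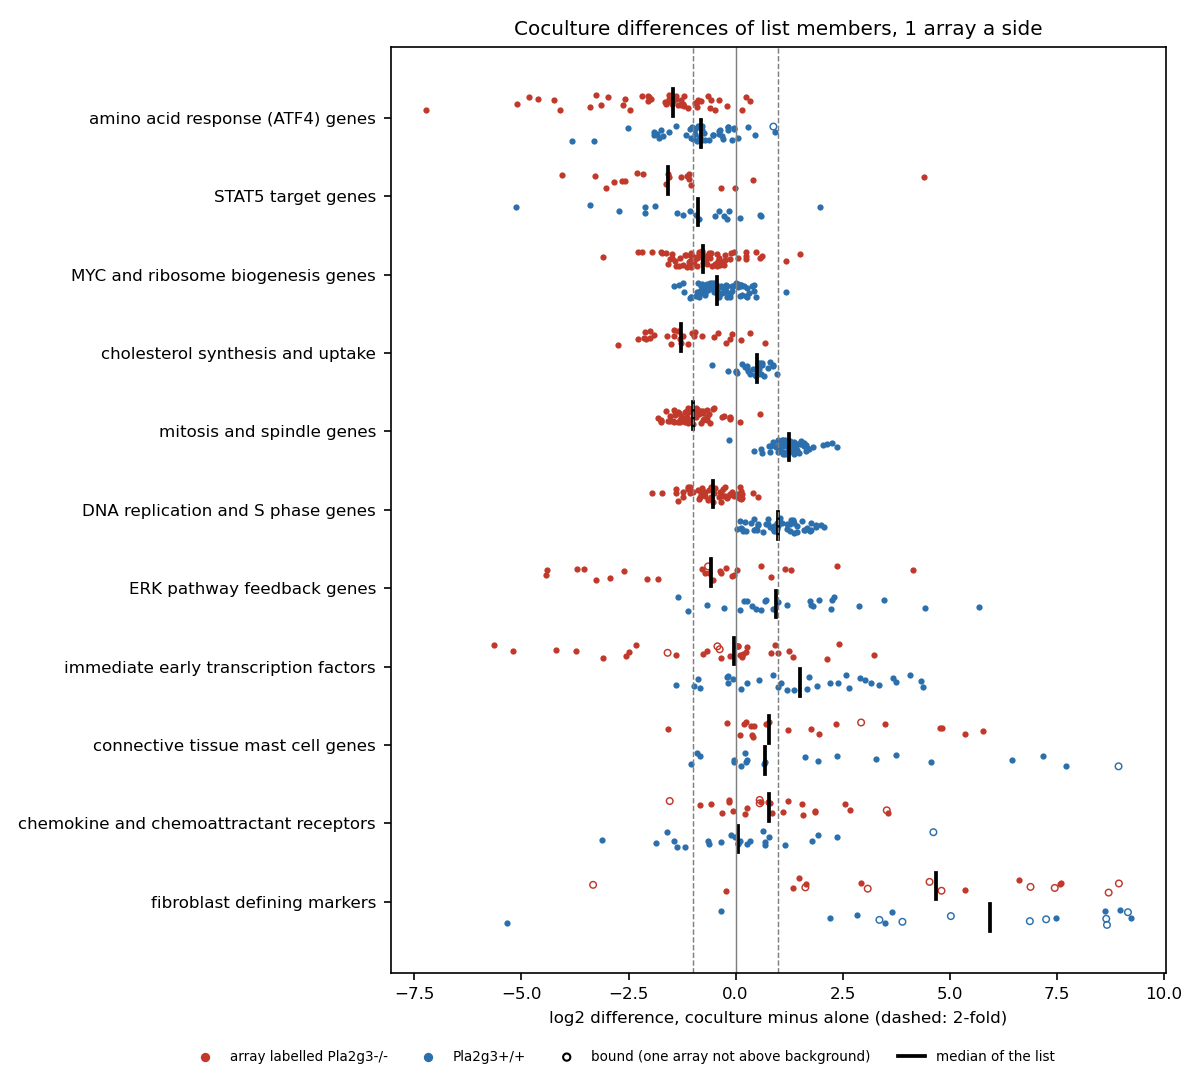
Log2 difference, coculture minus alone (horizontal axis), of each list member compared, for the arrays labelled Pla2g3-/- (red, upper row of each list) and Pla2g3+/+ (blue, lower row), with the list median as a black bar, bounds as open circles and 2-fold as dashed lines. Cholesterol, mitosis and S phase genes lie mostly to the left of 0 under the Pla2g3-/- label and to the right of 0 in Pla2g3+/+ cells, and fibroblast markers lie to the right in both.

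Levels in the other cocultures place these readings further. Tnf read -6.47 in the coculture labelled Pla2g3-/- and -7.31 on Lpar1-/- fibroblasts, against 2.04 in Pla2g3+/+ coculture and 2.58 on Lpar1+/+ fibroblasts. Mcpt1 read 1.02 and 1.53 on the first pair of arrays, against -2.85 and -3.23 on the second pair, and Fdps read 2.04 and 1.91, against 4.56 and 4.72. Cxcr4 did not follow this order, since it read -0.43 under the Pla2g3-/- label and -5.16 on Lpar1-/- fibroblasts.

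**Figure D4:**
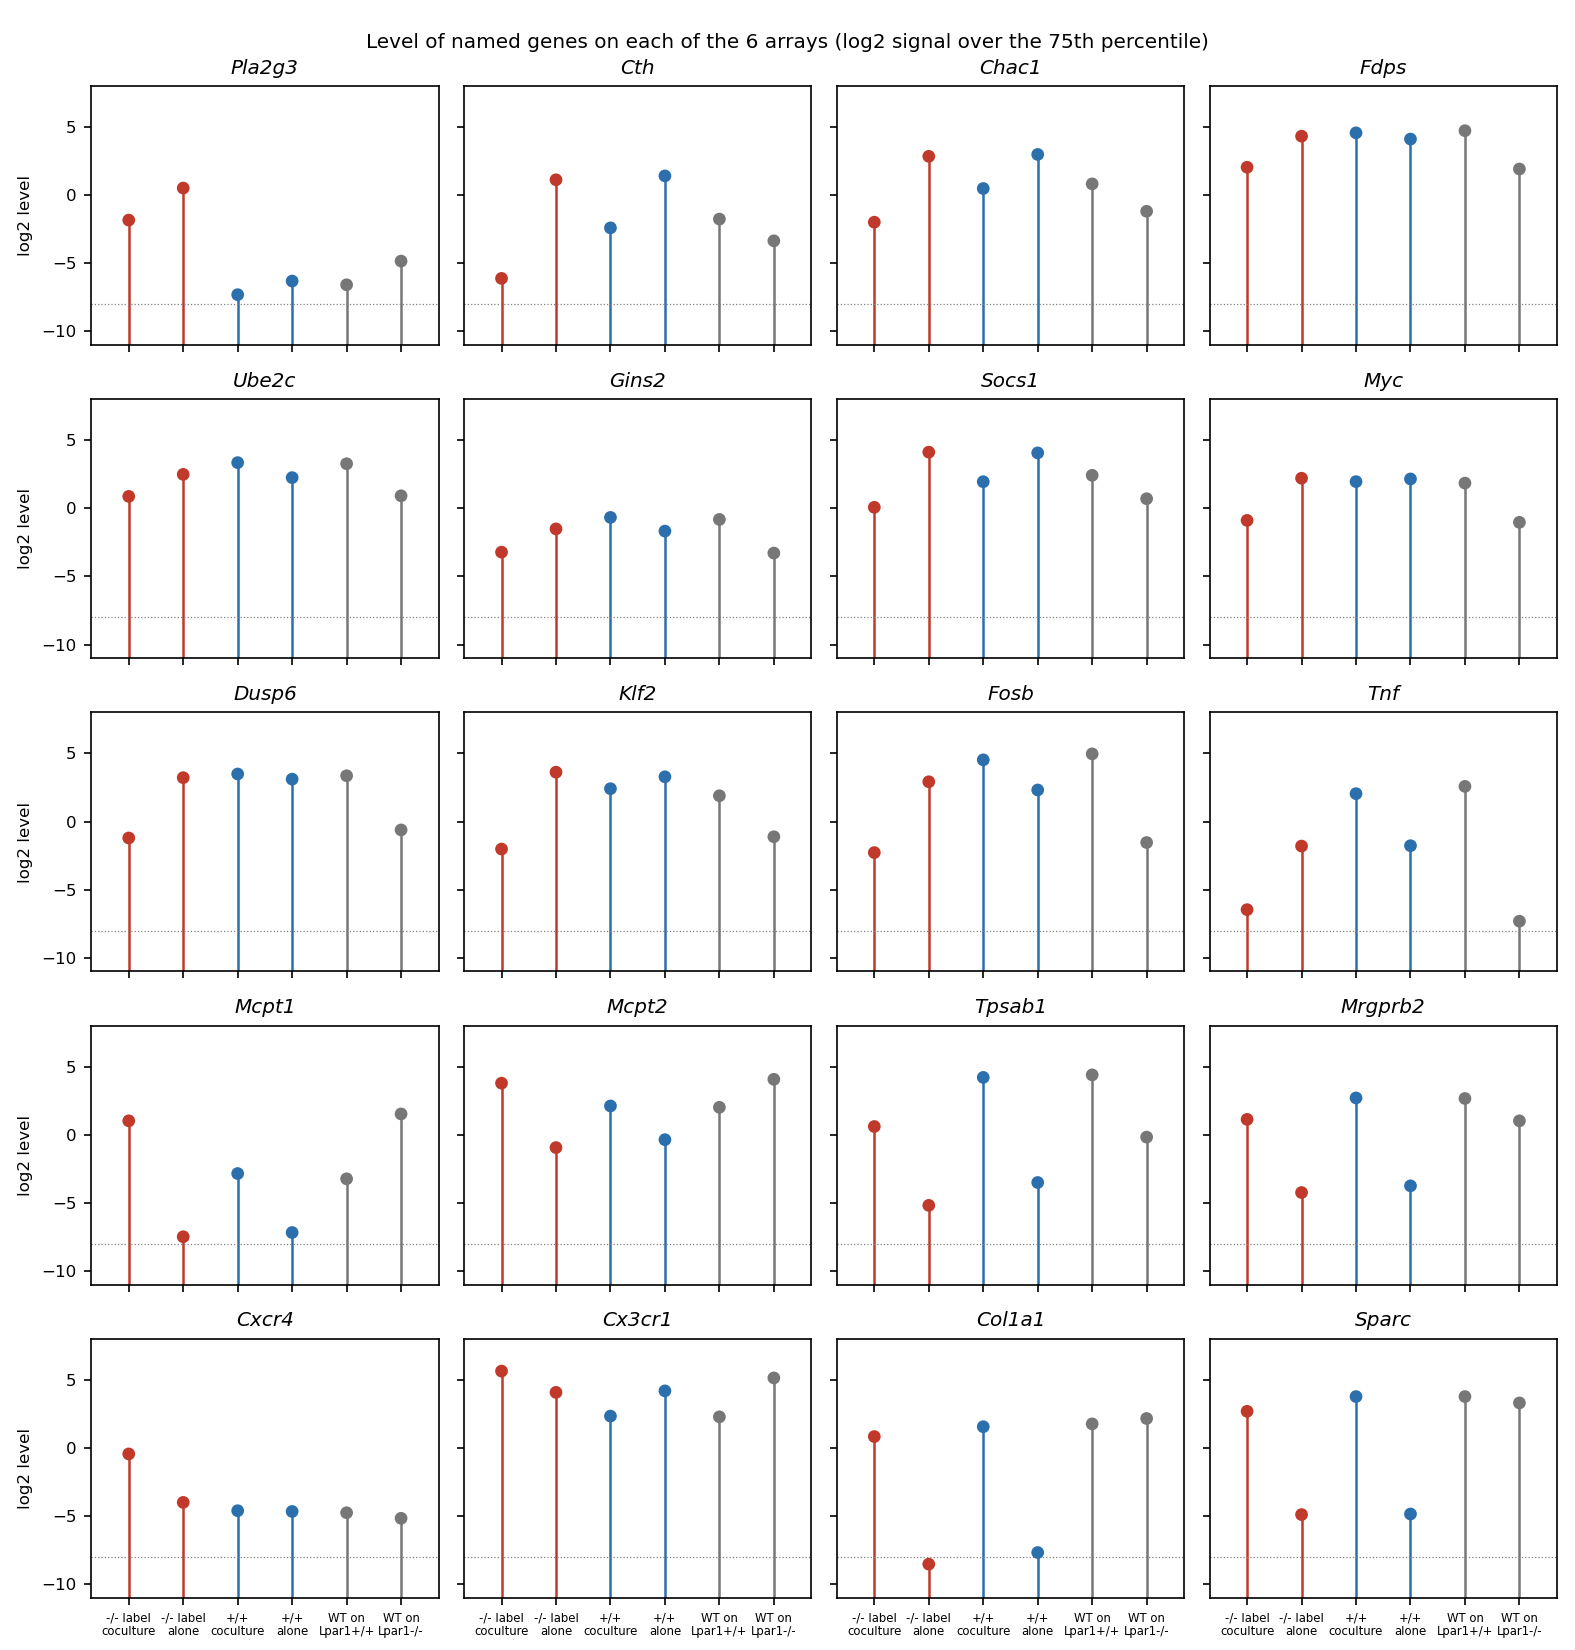
Log2 level (vertical axis, relative to the array's 75th percentile) of 20 named genes on the 6 arrays along the horizontal axis, 1 point an array, with the background limit dotted. Cth, Klf2, Fosb and Tnf are lower in the coculture labelled Pla2g3-/- than in the mast cells alone of that label, and Mcpt1, Mcpt2, Tpsab1 and Mrgprb2 are higher.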

How the data were processed

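The deposited scanner files hold single-colour Cy3 intensities that Agilent Feature Extraction 12.1.1.1 had detrended and background-subtracted, per the file headers. The deposited value table holds the same signal divided by each array's 75th percentile, as found by setting it against the scanner intensities of all 6 arrays. Each level is log2 of the processed signal minus the log2 of the 75th percentile over the 43020 noncontrol spots of its array. Spots marked as outliers (84 to 115 an array) were left out, and no spot was saturated. Between 70.7% and 80.4% of spots were well above background. Spots of 1 probe were averaged, and a gene with several probes took the brightest. Genes were called at 2-fold. Where 1 side was not above background, the difference is a bound against the higher of its own value and the lowest level above background on that array. Genes were named after the files or RefSeq. Named genes were the 15 highest and 15 lowest, the 6 largest bounds each way, and up to 5 members each way of 51 lists, plus members given to account for a list. Members and lists were chosen with earlier results of these data known. With 1 pooled array a group the number of arrays limits precision, and no test was made. The calling steps were tested on simulated data. Alternatives used limma 3.58.1 (normexp with an offset of 50), quantile or median scaling, other filters, the mean of probes, the deposited table and the other array without fibroblasts. Python 3.11.15 and R 4.3.3 were used. Some genes are not reported here.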

Additional observations from a re-analysis of the deposited data

Results flagged for a closer look

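In 5 lists the median coculture difference had one sign under the Pla2g3-/- label and the opposite sign in Pla2g3+/+ cells, with both medians farther from 0 than 0.29, the SD between like cocultures. Lists with opposite signs closer to 0 are not counted. That SD is over single genes on 1 slide, so it serves as a cut-off and not as the spread of a list median. The difference between the labels was not tested, since each side has 1 array. Lineage transcription factors had a median of 0.34 under the label and -0.42 in Pla2g3+/+ cells, ERK feedback genes -0.57 and 0.94, S phase genes -0.52 and 1.00, mitosis genes -1.004 and 1.26, and cholesterol genes -1.27 and 0.50.

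A further 17 of the 334 named genes were past 2-fold in opposite directions, also untested. Named genes were picked for large differences, so this count is no share of all genes. Of 21817 genes compared under both labels, 104 were higher under the Pla2g3-/- label and lower in Pla2g3+/+ cells. The reverse held for 116, among them 26 mitosis and 9 S phase genes. Among cell cycle genes, the differences were -1.95 under the label and 1.21 in Pla2g3+/+ cells for Orc1, -1.71 and 1.01 for Gins2, -1.39 and 1.01 for E2f2, -1.34 and 1.36 for Pole, -1.74 and 1.26 for Cenpm, -1.74 and 1.48 for Spc24, and -1.61 and 1.099 for Ube2c. A second Pole probe differed by 1.01 under the label, in the opposite direction to the first. Fosb had -5.20 under the label and 2.21 in Pla2g3+/+ cells, Tnf -4.67 and 3.82, Ccl7 -2.35 and 2.97, and Bcl2a1d -2.43 and 1.28. Clec10a had -3.40 under the label and 1.75 in Pla2g3+/+ cells, Gpnmb -2.51 and 2.49, and Gp9 -1.29 and 1.12. The 3 genes that were higher under the label were Il16 with 1.85 and -1.30, Mmp8 with 1.14 and -1.72, and Cx3cr1 with 1.56 and -1.85. With normexp background correction 5 of the 17 were within 2-fold under the label, namely Orc1 at -0.66, Bcl2a1d at -0.52, Gpnmb at -0.90, Gp9 at -0.99 and Mmp8 at 0.95.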

How the results depend on the processing

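With normexp background correction 1107 genes were higher and 911 lower, and without a filter on dim genes 2721 were lower. The ERK feedback median was -0.26 with normexp. The median of chemoattractant receptors was 0.20 with normexp and 0.44 with quantile normalisation. The fibroblast marker median was 1.91 with normexp, 4.28 with quantile normalisation, 2.92 over genes above background on both arrays and 3.81 without the filter. No list median changed sign as a called value in the alternatives run. Of the 334 named genes, 254 stayed past 2-fold with normexp, 318 with quantile normalisation, 329 with median scaling, 324 with the mean of all probes and 334 with the deposited value table. Set against the Pla2g3+/+ array without fibroblasts, 312 stayed past 2-fold, while Pla2g3 differed by 4.47, Mmp8 by -0.37 and Treml1 by -0.0612, each with the sign turned. With the mean of all probes Stfa1 differed by 0.58, also turned. The genes named above that were within 2-fold with normexp included Pik3r5, Zfp36, Orc1, Mxi1, Fasn, Bcl2a1d, Cxcr5, Lpar2 and Sphk1. The others were H2-Aa, Thy1, Mmp8, Gp9, Fcgr1, Gpnmb, Treml1 and Stfa1. The causes were not tested. No paired analysis was possible because each group has 1 array.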

Other observations

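Probes of immunoglobulin heavy variable segments, looked at after 4 of them were found among the lowest genes, had a negative median difference under both genotype labels. Of 57 such probes, 27 were at least 2-fold lower and 1 higher under the Pla2g3-/- label (median -0.97), and 25 were lower and 2 higher in Pla2g3+/+ cells (median -0.71). Over all genes compared, 7.29% were lower and 11.4% higher under the label, and 7.51% and 12.8% in Pla2g3+/+ cells. The 57 were those above background on at least 1 of the 2 arrays labelled Pla2g3-/-, including the 4 that prompted the look. The same 57 were taken for Pla2g3+/+ cells without a filter there, so some of those differences may rest on dim readings. The counts describe these probes and test nothing. These segments form a family of near-identical members, so their assignment is uncertain.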
